A study of Mus musculus with 24 samples.

Results

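The glucocorticoid receptor, its sister receptor for mineralocorticoids, an enzyme that regenerates their ligand and 7 target genes were examined in mouse brain. The 10 genes (Nr3c1, Nr3c2, Hsd11b1, Fkbp5, Sgk1, Tsc22d3, Zbtb16, Pdk4, Errfi1 and Cdkn1a) were chosen by name from 53465 genes listed, as receptors, enzyme and known targets. RNA was taken from the brain in 12 mice of wild-derived inbred strains: 6 were CAST/EiJ, of castaneus origin, and 6 were WSB/EiJ, of domesticus origin. The strains are described as unlike in the volume of brain lost when an artery is occluded. The labels name no surgery, treatment, age, sex or dissected region for these animals. Each animal is named by its strain and its number in the labels (CAST_142), and its libraries of 2 sequencing lanes were added.

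Glucocorticoids (corticosterone in mice) enter cells and bind 2 nuclear receptors, which move to the nucleus and raise or lower transcription. The mineralocorticoid receptor binds corticosterone more tightly and is abundant in the hippocampus, whereas the glucocorticoid receptor is found in nearly all brain cells and is engaged when the hormone is high, during stress or at the daily peak. Receptor dimers bind a pair of inverted hexamers in DNA. Target genes such as Fkbp5, Sgk1 and Tsc22d3 rise in brain after a dose of hormone, and many of them are strong in glia and vessels.

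The promoters are shown because a binding motif of the receptor can be read in them. RefSeq promoter sequences of GRCm38.p6 (the C57BL/6J reference, not the sequence of either strain) were matched for 8 of the 10 genes by symbol, with 17 start sites. In the 250 bases before each start, both strands were searched for the hexamer TGTTCT, which reads as AGAACA from the opposite strand. They were also searched for the full site, in which AGAACA is followed after 3 bases by TGTTCT, and for a looser palindrome, in which GNACA is followed after 3 bases by TGTNC. Every full site thus holds a looser palindrome and a hexamer on each side. The full site was found in 3 of 32851 promoters (0.00913%), and 1 of these is a promoter of Sgk1. Its full site begins 189 bases before the start, and a further hexamer begins 242 bases before it. In the sequences, on the strand of the gene, capitals mark these matches; the Sgk1 window lies at chr10:21993640-21993889 (plus strand) and the Fkbp5 window, shown for comparison because Fkbp5 is a widely used readout of the receptor, at chr17:28486150-28486399 (minus strand).
Sgk1: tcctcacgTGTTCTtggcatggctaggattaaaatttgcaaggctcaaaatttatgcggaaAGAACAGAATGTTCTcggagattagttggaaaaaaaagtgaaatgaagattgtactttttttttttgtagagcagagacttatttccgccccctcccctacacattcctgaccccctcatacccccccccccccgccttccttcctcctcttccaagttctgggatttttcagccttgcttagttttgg
Fkbp5: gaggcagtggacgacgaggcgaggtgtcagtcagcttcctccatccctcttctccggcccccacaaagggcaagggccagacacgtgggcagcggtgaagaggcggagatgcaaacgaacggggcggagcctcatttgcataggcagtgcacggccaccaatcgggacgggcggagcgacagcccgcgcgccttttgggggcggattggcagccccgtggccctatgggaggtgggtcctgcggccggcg
The Fkbp5 window holds no match, which says only that these letters are not in it. Over all, 4 of the 17 promoters (23.5%), 3 of Sgk1 and 1 of Tsc22d3, held a hexamer, against 16.1% of all promoters in the table. Many of the 17 are alternative starts of Sgk1 or Tsc22d3, and by gene 2 of the 8 held a hexamer. The looser palindrome, found in 0.387% of all promoters, was in the same Sgk1 window alone. Whether the receptor binds there was not measured.

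Libraries held 32982569 to 46513232 reads in genes per animal, with a median of 41506872.5. Levels are given as CPM, read counts scaled to library size with TMM factors. Differences are CAST over WSB on the log2 scale, with the standard error (SE) from edgeR's quasi-likelihood test, and genes with a p under 0.05 after Benjamini-Hochberg adjustment are referred to as called. By this rule 42.7% of 18425 tested genes were called, 21.5% higher and 21.2% lower in CAST. CAST_142 stood apart by markers of cerebellar granule neurons, whose summed level was 1509 CPM, against 45.6 to 94.3 CPM in the other CAST animals and 47.5 to 65.0 CPM in WSB. WSB_100 stood apart by olfactory bulb markers, with 249 CPM against 17.7 to 47.5 CPM in other WSB animals. The defining neuronal markers of brain were present in every library (4803 to 6193 CPM summed over 7 genes, of which Tubb3 and Nefl were listed at 0). Neither Tubb3 nor Nefl has any of its body outside other genes, so nothing can be said of their expression.

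Of the 10 genes, 9 had enough reads to be tested and 3 were called (33.3% of those tested, against 42.7% of all genes). Nr3c1 was higher in CAST, and Fkbp5 and Zbtb16 were lower. None of the 9 had strain ranges that did not overlap, where 27.1% of tested genes did. The median log2 difference of the 9 was -0.21, beside 0.0046 for all tested genes. Leaving out both CAST_142 and WSB_100 gave Nr3c1 higher and Tsc22d3 lower, the other 7 not called, and 46.6% of all genes called. Leaving out 1 animal, either CAST_200, CAST_202, WSB_100, WSB_120 or WSB_169, gave Nr3c1 alone. Calls over all genes were then, in that order, 7313 of 18569, 7619 of 18667, 7776 of 18722, 7725 of 18726 and 7526 of 18602. With all animals they were 7866 of 18425.

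**Figure D1:**
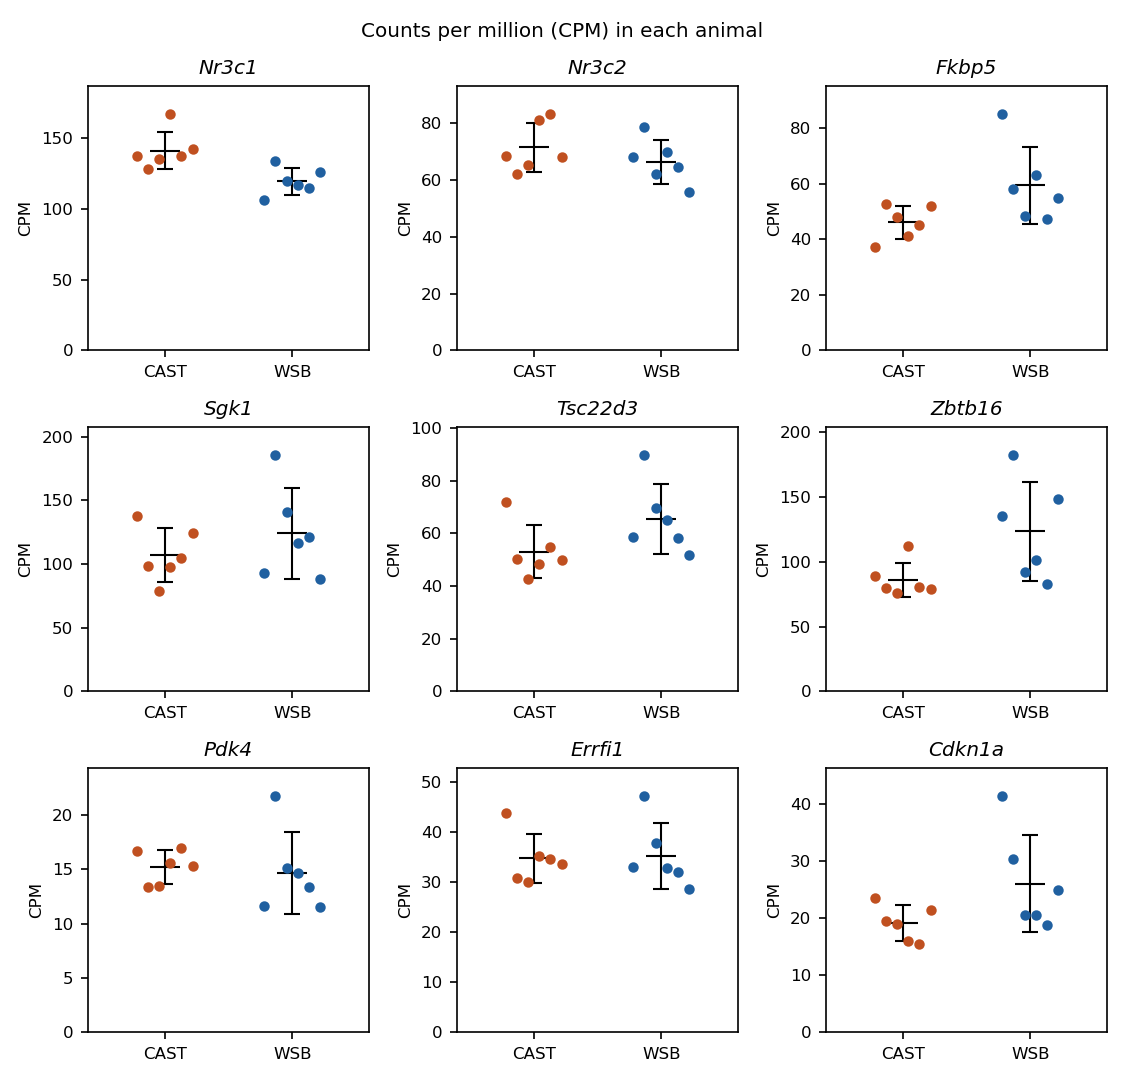
Level of each tested gene in CPM (vertical axis, from 0) in the 6 CAST and 6 WSB animals; points are animals, from left to right in the order of their numbers, and bars are mean ± SD. Ranges of the strains overlap in all 9 panels, least for Nr3c1, and single WSB animals reach 84.9 CPM for Fkbp5 and 185 CPM for Sgk1.

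Nr3c1 encodes the glucocorticoid receptor (chromosome 18, 39410545 to 39519421, GRCm38). Its level was 128 CPM at the lowest, 137 CPM at the median and 167 CPM at the highest in CAST, and 106, 118 and 134 CPM in WSB. Only CAST_170, at 128 CPM, fell inside the WSB range, and only WSB_120, at 134 CPM, inside the CAST range. The difference was 0.24 ± 0.07 (SE; adjusted p = 0.0111 by edgeR), or 1.18-fold higher in CAST, with a 95% interval of 1.07 to 1.31. It was called under every one of 20 alternative settings, with log2 differences of 0.18 to 0.27.

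Nr3c2 encodes the mineralocorticoid receptor (chromosome 8, 76899442 to 77245012). Its CPM was 62.2 at the lowest, 68.3 at the median and 83.0 at the highest in CAST, and 55.6, 66.2 and 78.5 in WSB. The strains overlapped at 4 animals of each, and the log2 difference was 0.10 ± 0.09 (SE; adjusted p = 0.380 by edgeR). Its 95% interval ran from -0.09 to 0.30. For each 100 Nr3c1 reads there were 47.8 to 60.4 Nr3c2 reads in CAST (median 48.5) and 44.0 to 63.9 in WSB (median 57.4), so the balance of the receptors overlapped between strains.

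Hsd11b1 encodes the enzyme that turns inactive 11-dehydrocorticosterone back into corticosterone inside cells. It was listed at 0 in all 12 animals, and nothing can be said of its expression: none of its gene body (chromosome 1, 193221634 to 193264075) lies outside other genes, and Lamb3 is among 3 genes that overlap it. Stub1, Srd5a1, Txnip and Avpr1a of the lists below were likewise at 0 with none of their body outside other genes. For the other 9 genes, 93.1% to 100% of the body lay outside other genes, and at most 6.83% of transcript 32-mers occurred in another gene.

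Fkbp5 encodes a co-chaperone that lowers the affinity of the receptor for hormone and is itself induced by the receptor (chromosome 17, 28399094 to 28517527). It was at 37.3 CPM at the lowest, 46.5 at the median and 52.8 at the highest in CAST, and at 47.3, 56.4 and 84.9 CPM in WSB. The highest value belonged to WSB_100 and the next, 63.0 CPM, to WSB_138; 3 CAST animals fell inside the WSB range and 2 WSB animals inside the CAST range. The log2 difference was -0.37 ± 0.14 (SE; adjusted p = 0.0437 by edgeR), or 1.29-fold lower in CAST. Without WSB_100 it was -0.24 (adjusted p = 0.0716 by edgeR), and without both CAST_142, the lowest CAST animal, and WSB_100 it was -0.19 (adjusted p = 0.107 by edgeR). The call was also lost without CAST_142, CAST_200, CAST_201, CAST_202, WSB_120, WSB_138 or WSB_169, with adjusted p of 0.0507 to 0.0869 by edgeR, on lane 6 only (0.0506) and with no filter on low counts (0.0683). It thus held in 9 of 20 settings, and the direction was the same in all 20.

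Zbtb16 encodes PLZF, a zinc finger repressor strongly induced by glucocorticoids in many tissues (chromosome 9, 48654297 to 48836222). It was at 75.7, 80.4 and 112 CPM (lowest, median, highest) in CAST and at 83.2, 118 and 182 CPM in WSB. Of the WSB animals, WSB_120, WSB_169 (149 CPM) and WSB_100 (135.4 CPM) lay above every CAST animal, whereas the other 3 lay inside the CAST range. The log2 difference was -0.52 ± 0.18 (SE; adjusted p = 0.0296 by edgeR), or 1.44-fold lower in CAST. Without WSB_120 it was -0.38 (adjusted p = 0.0636 by edgeR), and without CAST_142 and WSB_100 it was -0.51 (adjusted p = 0.0854 by edgeR). The call was also lost without CAST_170, CAST_200, CAST_202, CAST_203, WSB_100 or WSB_169, with adjusted p of 0.0525 to 0.0639 by edgeR, and with no filter on low counts (0.0655). It thus held in 11 of 20 settings, while the difference was negative in all 20.

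Tsc22d3 encodes GILZ, a leucine zipper protein that mediates anti-inflammatory effects of glucocorticoids (chromosome X, 140539528 to 140600659). It was at 42.6, 50.1 and 71.9 CPM in CAST and at 51.6, 61.7 and 89.6 CPM in WSB (lowest, median, highest). CAST_142 held the highest CAST value, and 4 of the other 5 CAST animals lay below every WSB animal. The log2 difference of -0.31 ± 0.14 (SE) was not called (adjusted p = 0.0974 by edgeR; 95% interval -0.61 to -0.0028). Without CAST_142 it was -0.42 and was called (adjusted p = 0.0154 by edgeR), and without CAST_142 and WSB_100 it was -0.45 (adjusted p = 0.0161 by edgeR).

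Cdkn1a encodes p21, an inhibitor of cyclin-dependent kinases (chromosome 17, 29090976 to 29100727). It was at 15.5, 19.3 and 23.6 CPM in CAST and at 18.9, 22.7 and 41.4 CPM in WSB, with WSB_100 the highest and WSB_120 next at 30.3 CPM. The log2 difference was -0.44 ± 0.18 (SE; adjusted p = 0.0679 by edgeR; 95% interval -0.84 to -0.05). It was called by DESeq2 (adjusted p = 0.0416) and, by edgeR, without WSB_147 (adjusted p = 0.0372), and it was -0.27 without WSB_100 (adjusted p = 0.143).

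Sgk1, a kinase that acts on ion channels and transporters and whose promoter is shown above, spread more between animals than between strains (chromosome 10, 21882184 to 21999903). It was at 79.2, 102 and 137.7 CPM in CAST and at 88.6, 119 and 185 CPM in WSB. Its log2 difference was -0.21 ± 0.18 (SE; adjusted p = 0.363 by edgeR; 95% interval -0.60 to 0.17). Neither of the remaining genes was called. Pdk4, a kinase that inactivates pyruvate dehydrogenase (chromosome 6, 5483351 to 5496309), was at 13.4, 15.4 and 16.9 CPM in CAST and at 11.6, 13.98 and 21.7 CPM in WSB (log2 difference 0.05 ± 0.14 SE; 95% interval -0.25 to 0.35). Errfi1, an inhibitor of EGF receptor signalling (chromosome 4, 150853919 to 150868892), was at 30.2, 34.2 and 44.0 CPM in CAST and at 28.7, 32.9 and 47.2 CPM in WSB (-0.02 ± 0.12 SE; 95% interval -0.28 to 0.24).

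**Figure D2:**
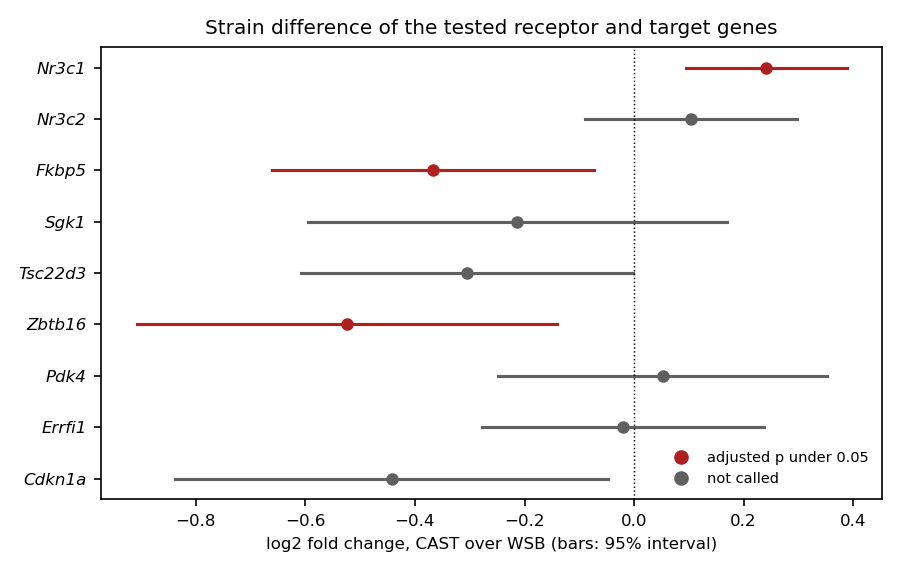
Log2 fold change of CAST over WSB (horizontal axis) for the 9 tested genes; bars are 95% intervals, red marks genes with an adjusted p under 0.05. Nr3c1 lies above 0 at 0.24, Fkbp5 and Zbtb16 below it at -0.37 and -0.52, and Tsc22d3 and Cdkn1a lie at -0.31 and -0.44 without a call.

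Levels of different genes can be compared only per length, and here the length is uncertain, because reads of introns may be included. Per kilobase of exon, Sgk1 was the highest of the 9 in both strains, where CAST had 21.8 ± 4.27 CPM per kb (SD, n = 6) and WSB 25.3 ± 7.26 (SD, n = 6). Pdk4 was the lowest, with 4.33 ± 0.438 in CAST and 4.17 ± 1.07 in WSB. On this scale the order in CAST was Sgk1, Nr3c1, Zbtb16, Tsc22d3, Nr3c2, Errfi1, Cdkn1a, Fkbp5 and Pdk4, and only between Errfi1 and Cdkn1a did neighbours differ by more than the sum of their SDs. In WSB Zbtb16 stood before Nr3c1 and the order was otherwise the same, with only Tsc22d3 and Nr3c2 differing by more than that sum. Per kilobase of gene body, Errfi1 and Cdkn1a led in both strains and Nr3c2, whose body is 345.571 kb long, was the lowest, at 0.206 ± 0.0249 CPM per kb in CAST and 0.192 ± 0.0225 in WSB.

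Animals of a strain differed in the target genes, and not along 1 line. In WSB the CPM of 5 of the 7 targets (Sgk1, Tsc22d3, Zbtb16, Pdk4 and Errfi1) was highest in WSB_120, while Fkbp5 and Cdkn1a were highest in WSB_100. WSB_169 held the lowest WSB value of Sgk1, Tsc22d3, Pdk4 and Errfi1, and WSB_147 that of Fkbp5, Zbtb16 and Cdkn1a. In CAST, CAST_142 was highest for Sgk1, Tsc22d3, Errfi1 and Cdkn1a and lowest for Fkbp5, and CAST_200 was lowest for Sgk1, Tsc22d3, Zbtb16 and Errfi1. On the log2 scale WSB_120 lay 0.48 above the WSB mean for Tsc22d3, 0.60 for Pdk4 and 0.44 for Errfi1.

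Summed oligodendrocyte markers (8 genes, among them Mbp, Mag and Mog) differed between the same animals: 3515 CPM in WSB_120, 1910.3 CPM in WSB_169 and 1461 CPM in WSB_100, with 2429 to 2948 CPM in the other WSB animals and 2133 to 2869.6 CPM in CAST. This list was singled out after its values were seen. Of these 8 markers 1, Cldn11, was called, lower in CAST. Immediate early genes (8 genes, among them Fos and Arc) summed to 1340 CPM in WSB_120 and to 420 to 810 CPM in the other WSB animals. Choroid plexus markers (8 genes, Kcnj13 at 0) summed to 57.4 CPM in WSB_100, 236 CPM in WSB_169 and 426 to 738 CPM in the other WSB animals. The part of these markers in the spread of the targets was not tested, and in bulk tissue fewer cells of a type and less RNA per cell cannot be told apart.

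**Figure D3:**
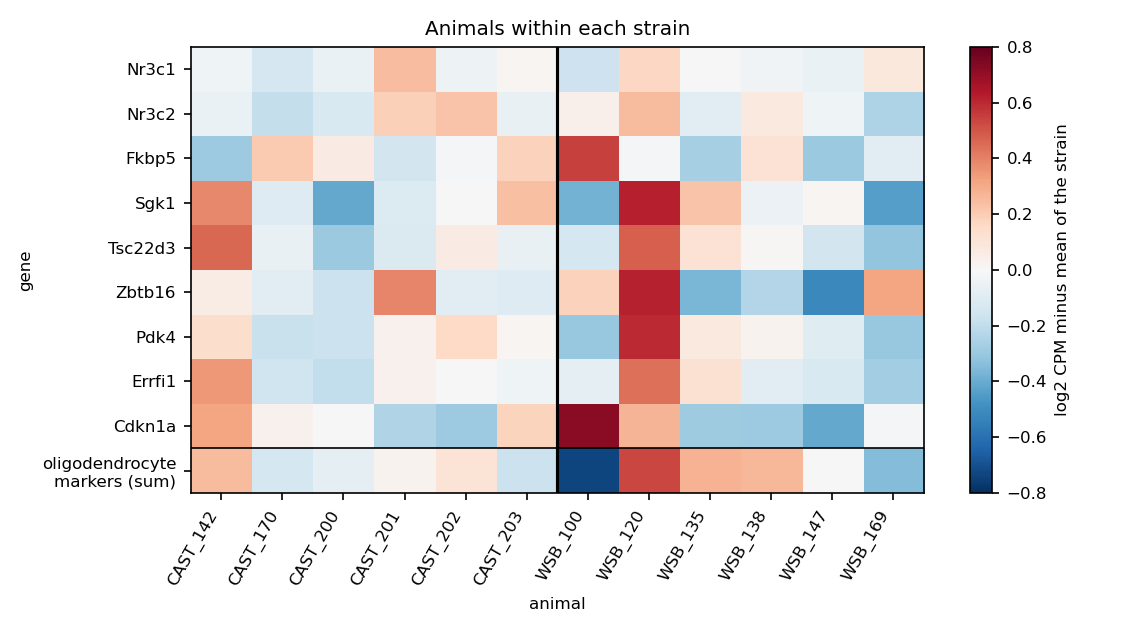
Level of the 9 tested genes in each animal as log2 CPM minus the mean of its strain (colour scale), with the summed oligodendrocyte markers on the same kind of scale in the bottom row; animals are columns, CAST left and WSB right of the line. WSB_120 is the highest WSB animal in 5 targets and in the markers, and WSB_100 is the highest in Fkbp5 and Cdkn1a and low in the markers. WSB_120 also lies above the mean for Cdkn1a (0.27), and WSB_100 for Zbtb16 (0.19).

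Correlations of Fkbp5 with the other targets were computed within each strain, 12 relations over 6 animals each, and 0 passed after adjustment, while 2 r and 0 rho had an unadjusted p under 0.05 (lowest adjusted p = 0.233 for Pearson's r and 0.525 for Spearman's rho, exact permutation, two-sided). In CAST r was negative for all 6 targets, from -0.85 for Errfi1 (exact permutation p = 0.0236, adjusted p = 0.233; rho -0.83, exact permutation p = 0.0583, adjusted p = 0.525) to -0.05 for Cdkn1a. In WSB r was highest for Cdkn1a, at 0.84 (exact permutation p = 0.0389, adjusted p = 0.233; rho 0.66, exact permutation p = 0.175, adjusted p = 0.525). These values rest on few animals: without CAST_142 and CAST_170, the farthest from the median of Fkbp5, r was -0.47 for Errfi1, and without WSB_100 and WSB_147 it was 0.18 for Cdkn1a in WSB.

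The genes whose pattern over animals was most like that of Fkbp5, by the mean of the r within CAST and the r within WSB, were Pxdn (0.90), Sema5b (0.90), Cd300c2 (0.90), Rps19 (0.89) and Socs2 (0.88), of 12688 protein-coding genes. Pxdn encodes an extracellular matrix peroxidase and Socs2 a suppressor of cytokine signalling. Pxdn was at 31.8, 51.6 and 55.9 CPM in CAST and at 58.8, 64.2 and 77.8 CPM in WSB (lowest, median, highest), so that, unlike Fkbp5, its ranges did not overlap. Those of Sema5b, Cd300c2, Rps19 and Socs2 did not overlap either, as in 27.1% of all tested genes. Cd300c2 was higher in CAST (log2 difference 2.14), whereas Pxdn, Sema5b, Rps19 and Socs2 were lower. Rps19 was at only 5.15 to 6.30 CPM in CAST and 13.2 to 16.4 CPM in WSB. How much of its sequence occurs in other genes was not measured, so its count is uncertain. Most like Nr3c1 were Cenpa, Crk, Egr4, Btbd8 and Dusp6, with mean r of 0.92 each; Egr4 is an immediate early transcription factor and Dusp6 a phosphatase of the ERK kinases. None of these 10 is on the lists of chaperones or glucocorticoid-induced genes. With 6 animals in a strain and so many genes searched, such values are a description.

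Other genes of the pathway were taken as 4 lists. Of 21 tested receptor chaperones and coregulators, 3 were higher in CAST, 3 lower and 15 not called (28.6% called, beside 42.7% of all genes; median log2 difference 0.04). All 6 called genes were chaperones or co-chaperones, but this split of the list was made after the calls were seen and was not tested. Hsp90aa1 and Hspa4, also chaperones, were not called. Hspa8, the constitutive Hsc70 chaperone, was at 142.4 to 155 CPM in CAST and 36.2 to 44.6 CPM in WSB (1.93 ± 0.05 SE; adjusted p = 5.72e-12 by edgeR), but 69.9% of its sampled transcript 32-mers occur in other genes, so its count is uncertain. Ptges3, the p23 co-chaperone that stabilises the hormone-binding state, was at 59.98 to 66.7 CPM in CAST and 32.8 to 38.6 CPM in WSB (0.84 ± 0.05 SE; adjusted p = 5.64e-09 by edgeR), with 24.7% shared. Ppid, the immunophilin Cyp40 that competes with Fkbp5 for the Hsp90 complex, was lower in CAST, at 37.0 to 41.3 against 47.9 to 55.5 CPM (-0.39 ± 0.04 SE; adjusted p = 9.61e-06 by edgeR), with 29.0% shared. For these 3 genes the strains had separate ranges. The other called genes, named after their values were seen, were Bag1 (higher, 0.22), Stip1 (lower, -0.20) and Hsp90ab1 (lower, -0.14). Bag1 had separate ranges too, so that 4 of the 21 tested genes did, beside 27.1% of all tested genes. Fkbp4, the co-chaperone that favours nuclear transport, was not called. It was at 157 CPM in CAST_142, 91.9 to 106 CPM in the other CAST animals and 89.6 to 123 CPM in WSB.

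Genes of steroid metabolism and transport were called at 7 of 8 tested (87.5%, beside 42.7% of all genes), 2 higher and 5 lower in CAST, with a median log2 difference of -0.29. Abcb1b, a P-glycoprotein that exports corticosteroids, was at 0.593 to 0.933 CPM in CAST and 3.15 to 4.94 CPM in WSB (-2.35 ± 0.13 SE; adjusted p = 8.67e-09 by edgeR). Its neighbour Abcb1a, the main form at the blood-brain barrier, was at 17.4 to 20.3 against 21.1 to 23.3 CPM (-0.24), and 27.9% of the transcript 32-mers of Abcb1a and 20.96% of those of Abcb1b occur in other genes. Hsd11b2, which inactivates corticosterone, was at 0.282 to 0.513 CPM in CAST and 0.579 to 1.15 CPM in WSB (-1.09 ± 0.19 SE; adjusted p = 4.76e-04 by edgeR), on 13 to 45 reads per animal, and on lane 6 alone its difference of -0.86 was not called (adjusted p = 0.0612 by edgeR). Cyp11a1, the enzyme of the initial step of steroid synthesis, was at 1.01 to 2.15 against 2.02 to 5.62 CPM (-1.26 ± 0.23 SE; adjusted p = 6.31e-04 by edgeR). Star, the mitochondrial cholesterol carrier, was lower in CAST (-0.34), H6pd, which supplies the cofactor of the Hsd11b1 enzyme, was higher (0.34), and so was Akr1c14, a hydroxysteroid dehydrogenase (0.72); these 3 were named after their values were seen. Serpina6, the corticosteroid carrier of plasma, and Cyp11b1 had too few reads to be tested.

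Of 28 other tested glucocorticoid-induced genes 3 were higher and 5 lower in CAST and 20 were not called (28.6% called, beside 42.7% of all genes; median log2 difference 0.04). Plin4, a lipid droplet protein, was at 3.28, 5.04 and 7.59 CPM in CAST and at 5.53, 13.7 and 23.8 CPM in WSB (lowest, median, highest), with WSB_100 the highest (-1.34 ± 0.30 SE; adjusted p = 0.00287 by edgeR). Sult1a1, a sulfotransferase, was at 4.94 to 8.61 against 8.25 to 13.97 CPM (-0.80 ± 0.16 SE; adjusted p = 9.07e-04 by edgeR). Glul, the glutamine synthetase of astrocytes, was higher in CAST, at 981 to 1108 against 786 to 977 CPM (0.27 ± 0.06 SE; adjusted p = 0.00196 by edgeR), with 28.5% of 32-mers shared. Named after their values were seen, Hif3a, Angptl4 and Rhob were also lower in CAST, and Nedd9 and Map3k6 higher, with log2 differences of -0.80, -0.75, -0.24, 0.28 and 0.41. Per1, Dusp1, Klf9, Klf15, Ddit4, Nfkbia, Mt1 and Mt2, all classical targets, were not called, with log2 differences from -0.26 for Ddit4 to 0.45 for Dusp1. Little can be said of Mt2, which was at 0.282 to 0.532 CPM. Only 17.2% of its body lies outside another gene, and 50% of its 32-mers are shared. Without CAST_142 the count of 8 rose to 10, with 8 lower and 2 higher, and it fell to 5 without CAST_200, CAST_201, CAST_203, WSB_100 or WSB_138. Calls over all genes moved the same way. They went from 7866 of 18425 to 8726 of 18593 without CAST_142, and to between 7313 and 7776 under the other omissions. When both CAST_142 and WSB_100 were omitted, 6 of the induced genes were lower and 2 higher, beside 46.6% of all genes called.

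Within WSB, WSB_120 was the highest animal for 12 of these 28 genes, among them Per1, Klf15, Nfkbia and Cebpd, and WSB_100 for 9, among them Plin4, Hif3a, Angptl4 and Sult1a1. The other 7 were highest in WSB_138 (4 genes) or in WSB_135, WSB_147 or WSB_169 (1 each), and WSB_100 was lowest for 4 and WSB_120 for 3. Hif3a, for example, was at 22.7 CPM in WSB_100 and 7.88 to 15.99 CPM in the other WSB animals, whereas Per1 was at 113 CPM in WSB_100 and 185 CPM in WSB_120. In CAST, CAST_142 was highest for 17 of the 28 and CAST_200 lowest for 11. These counts are descriptions, and the genes of a library are not independent.

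Of 8 tested peptides and receptors of the stress axis 1 was higher and 1 lower in CAST (25% called, beside 42.7% of all genes). Ucn, the peptide urocortin, was at 0.113 to 0.979 CPM in CAST and 0.0466 to 0.362 CPM in WSB (1.62 ± 0.49 SE; adjusted p = 0.0163 by edgeR), on 2 to 46 reads per animal. Crhbp, which binds and neutralises corticotropin-releasing hormone, was at 9.20 to 16.2 against 15.4 to 22.9 CPM (-0.44 ± 0.13 SE; adjusted p = 0.0172 by edgeR). On lane 6 alone Crhbp was at -0.35 and was not called (adjusted p = 0.0681 by edgeR), and Ucn had too few reads to be tested on single lanes. Crh was at 2.51 to 5.19 CPM in CAST and 2.81 to 4.58 CPM in WSB. Its receptor gene Crhr1 was at 72.5 CPM in CAST_142, 25.9 to 38.4 CPM in the other CAST animals and 23.4 to 43.2 CPM in WSB. Neither Crh nor Crhr1 was called. Avp ranged from 0.181 to 21.4 CPM in CAST and from 0.202 to 34.5 CPM in WSB, and Oxt from 0.0678 to 19.3 and from 0.101 to 16.8 CPM, so animals of the same strain differed many-fold.

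**Figure D4:**
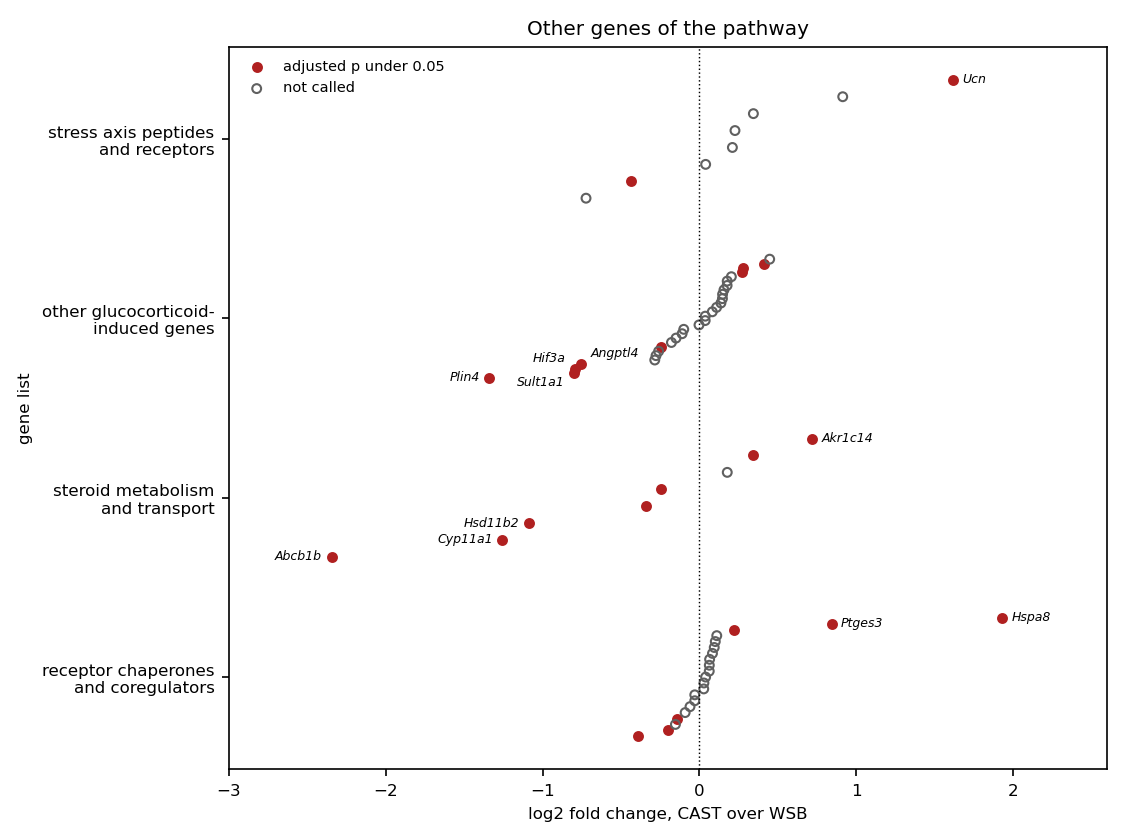
Log2 fold change of CAST over WSB (horizontal axis) for the tested genes of 4 lists (rows), sorted within each list; filled red points are called at an adjusted p under 0.05, open points are not. The called genes farthest from 0 are named, from Abcb1b at -2.35 to Hspa8 at 1.93, and most induced genes lie near 0.

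Markers of other cell types were called at shares on both sides of the 42.7% of all genes. Endothelial (62.5%), mural and microglial markers (57.1% each) were above it, meningeal fibroblast markers (42.9%) near it, and astrocyte (33.3%), hippocampal (28.6%), immediate early and clock (25% each), olfactory bulb (20%), choroid plexus (14.3%) and oligodendrocyte markers (12.5%) below it. Mural markers were lower in CAST at 4 of 7, led by Rgs5 (-1.36), Vtn and Abcc9, and their sum ran from 114 to 137 CPM in CAST and from 204 to 228 CPM in WSB, without overlap. Rgs5 weighed most in that sum, with 39921 reads over all animals and 15631 for Vtn, the next. The median log2 difference of the mural list was -0.18, and 3 of its genes were not called. Meningeal fibroblast markers were higher at 2 (Col3a1 and Lum) and lower at 1 (Ptgds) of 7, with sums of 212 to 371 CPM in CAST and 377 to 547 CPM in WSB. Most of that sum was Ptgds, at means of 235 CPM in CAST and 482 CPM in WSB. Endothelial markers were higher at 2 (Tie1 and Pecam1) and lower at 3 (Kdr most clearly) of 8. Astrocyte markers were higher at 1 (Gja1) and lower at 1 (Aldh1l1) of 6, with Gfap at 0, and microglial markers lower at 4 of 7 (Aif1, C1qa and C1qb first), with P2ry12 at 0. Neither Gfap nor P2ry12 has any of its body outside other genes, so nothing can be said of their expression. Choroid plexus markers were lower at 1 (Clic6) of 7, erythroid genes higher at 2 (Hba-a1 and Hbb-bt) of 4, and the 1 tested leukocyte gene, S100a9, was higher. The counts of Hba-a1 and Hbb-bt are uncertain, because 79.8% and 58.8% of their transcript 32-mers occur in other genes. Of 5 pan-neuronal markers (Snap25 the most abundant) and 9 striatal markers (Pde10a), 0 were called by edgeR, 0 by DESeq2, and 0 had an unadjusted p under 0.05. Striatal content was still uneven between animals. The markers summed to 373 CPM in CAST_142, 958 to 1954 CPM in the other CAST animals and 1122 to 1907 CPM in WSB.

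Hippocampal markers were lower at 2 (Wfs1 and Dsp) of 7, olfactory bulb markers lower at 1 (Doc2g) of 5, and cerebellar granule markers higher at 2 (Fat2 and Cbln3) of 4. Immediate early genes were higher at 2 (Npas4 and Nr4a1) of 8, and clock genes higher at 1 (Hlf) and lower at 2 (Cry2 and Bhlhe41) of 12. The count of Doc2g is uncertain, with 61.1% of its 32-mers shared and only 32.2% of its body outside another gene. Only 22.97% of the body of Cry2 lies outside another gene, and 22.1% of the 32-mers of Bhlhe41 are shared. Without CAST_142 and WSB_100, the count of higher markers was 0 for cerebellar granule neurons, 1 for immediate early genes, 0 for clock genes and 2 for astrocytes. The count of lower markers was then 3 for mural cells, 2 each for oligodendrocytes, astrocytes and choroid plexus and 1 for pan-neuronal markers, and the counts of the other lists named here were as before. Pituitary markers had too few reads to be tested and summed to at most 1.67 CPM. The part of cell makeup, of time of day and of recent activity in the differences of the 10 genes was not tested.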

How the data were processed

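The authors deposited raw read counts by gene, 1 file to an animal and lane. Per the submitters' processing notes, the tools included TopHat2 2.1.1, cutadapt, DESeq2 and HTSeq. Which build, annotation and strand setting they were run with is not given in the sources used here. A file holds 53465 genes, and its 5 summary rows (such as ambiguous reads) did not enter library sizes; 62.9% to 68.0% of counted alignments fell in genes, 11.1% to 16.5% in more than 1 feature and 15.6% to 17.5% were not unique. Lanes 5 and 6 were added for each of the 12 animals, which were treated as separate because their labels number them. Symbols and coordinates come from GENCODE M21 (GRCm38), which holds 53360 of the identifiers; the files' own build may differ. Reads of overlapping or antisense genes, and of introns, may not be told apart in these counts, and unequal alignment of the strains to the reference was not tested.

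The test of strain was that of edgeR 4.0.16, run in R 4.3.3 (TMM scaling, default expression filter, robust quasi-likelihood test, Benjamini-Hochberg over 18425 genes), checked on simulated data. SE is the log2 difference divided by the square root of F. Log2 CPM for correlations used a prior count of 2. Alternatives were RLE, upper-quartile and protein-coding TMM scaling, DESeq2 1.42.0, no filter, single lanes, and leaving out animals. Shared sequence is the share of every 10th transcript 32-mer found in another gene. The members and lists were chosen with earlier results of these data known. Named genes are the 10 members, up to 3 called genes with the smallest p of each list (or its most abundant gene where none was called), and the 5 genes most like Fkbp5 and Nr3c1; others are said to be named after their values were seen, or are list genes given as examples. A gene of the oligodendrocyte list is not reported here and was left out of its sum and counts.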

Additional observations from a re-analysis of the deposited data

Results flagged for a closer look

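For the 9 tested genes, the pathway genes named by rule and the sums of markers, the highest and lowest animal of each strain were checked with Dixon's criterion, the gap to the next animal as a share of the spread of all 6. It was exceeded in 11 of 74 groups, and by chance about 1 in 20 groups would exceed it.

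CAST_201 was far above the other CAST animals for Nr3c1 (167 CPM, next 143 CPM) and for Zbtb16 (112 CPM, next 88.9 CPM). WSB_120 was far above the other WSB animals for Pdk4 (21.7 CPM, next 15.1 CPM). CAST_142 was high for Sult1a1 (8.61 CPM, next 5.97 CPM) and low for Crhbp (9.20 CPM, next 13.7 CPM). Among summed markers, CAST_142 was low for microglia (140.2 CPM, next 209 CPM) and high for cerebellar granule neurons (1509 CPM, next 94.3 CPM), and WSB_100 was high for olfactory bulb (249 CPM, next 47.5 CPM). CAST_170 was high for erythroid genes (179 CPM, next 88.6 CPM), and CAST_202 was low for pan-neuronal markers (4803 CPM, next 5290.3 CPM) and high for pituitary markers (1.67 CPM, next 0.319 CPM).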

How the results depend on the processing

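Of the 10 genes, 3 were called by the fit as reported, 1 with no filter on low counts, and 1 to 4 with single animals left out. Over all genes the count was 7866 of 18425, and 9066 of 30264 with no filter. It stayed between 7313 and 8726 with single animals left out. Pathway lists, again with single animals left out, gave 5 to 6 called chaperones and coregulators, 6 to 8 genes of steroid metabolism, 5 to 10 other induced genes and 2 stress axis genes each time; of the last list 1 was called on lane 5 only and 0 on lane 6 only, where 7 of its genes were tested instead of 8 and Ucn was not. Pdk4 reversed to -0.038 without CAST_142 and WSB_100, and ranged from -0.011 to 0.20 with single animals left out, as Errfi1 did from -0.10 to 0.079; neither was ever called. Without the 2 animals farthest from the median of Fkbp5, r with Fkbp5 turned to 0.35 for Sgk1 and 0.89 for Cdkn1a in CAST, and to 0.064 for Tsc22d3 and 0.15 for Pdk4 in WSB. No correlation passed with RLE scaling either. No scaling moved the median of all genes by 0.1. The cause of these changes was not tested. No paired analysis was possible because the strains share no animal number. The number of animals, 6 in a strain, limits the precision to the intervals given.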
